A study of Mus musculus with 9 samples.

Results

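The Dlk1-Meg3 imprinted locus lies on mouse chromosome 12 and was followed through 8 genes, Dlk1, Meg3, Rtl1, 1110006E14Rik, Rian, Mirg, Dio3os and Dio3, in retinal organoids. The genes were taken by their name in the array design, and each probe was kept apart, which gave 18 of the 56503 gene probes and 8 of the 37284 genes or transcripts they name. These probes spanned chr12:110698428-111518851 of build mm9, or 0.82 Mb. The genes were chosen by their levels on these arrays, where Meg3 and its neighbours differed between Isl1KO and WT, so every difference between lines below is a description with no test.

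Retinal organoids, retina-like tissue grown in floating culture from mouse ES or iPS cells by quick reaggregation (SFEBq), came from 3 cell lines. Isl1KO is labelled an Islet-1 knockout, B4KO a Bhlhb4 knockout (a gene now named Bhlhe23), and WT wildtype. Both knockouts were made to reduce bipolar cells, the interneurons between photoreceptors and ganglion cells. Samples of 5 pooled organoids were taken on days 10 (DD10), 16 (DD16) and 23 (DD23) of differentiation, 1 from every line, and hybridised to 9 single-colour Agilent arrays. There was no replicate of a line on a day, and the labels give no further detail on clones or the parts deleted. The B4KO arrays lay on 1 slide and the Isl1KO and WT arrays on another, so that B4KO and slide cannot be told apart. Each day took 1 column of the slides, so that day and column cannot be told apart either. The Isl1KO arrays lay in row 1 of their slide and the WT and B4KO arrays in row 2 of theirs. Isl1KO and row therefore cannot be told apart.

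In mammals only 1 parental copy of an imprinted gene is active. In this domain Dlk1 (a transmembrane Notch-ligand relative), Rtl1 (a retrotransposon-derived protein) and Dio3 (the deiodinase that inactivates thyroid hormone) are known to be expressed from the paternal chromosome. Meg3, Rian and Mirg, long noncoding RNAs, are expressed from the maternal one, where Rian carries small nucleolar RNAs and both Rian and Mirg carry part of the domain's microRNAs. 1110006E14Rik and Dio3os, a noncoding RNA transcribed away from Dio3, were not assigned to a parental copy here. In the developing retina Dio3 is known for holding thyroid hormone low while cone types are specified. The arrays measure total RNA of each gene and cannot tell the parental copies apart.

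The probes that carry the comparisons are 60 bases long and are shown as printed on the array. The first 4 represent RNAs that were high in Isl1KO, Dlk1 represents the paternally expressed neighbour that was not, and the 2 of Dio3os represent the falls between days. Capitals mark AATAAA or ATTAAA, the hexamers found at polyadenylation sites, searched on the printed strand only and present in 13.4% of all gene probes.

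Meg3 probe 5: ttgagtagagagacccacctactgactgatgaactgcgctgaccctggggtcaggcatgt
1110006E14Rik probe 2: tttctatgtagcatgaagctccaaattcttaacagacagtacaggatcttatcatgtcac
Rian probe 2: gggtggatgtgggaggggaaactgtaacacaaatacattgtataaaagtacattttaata
Mirg probe 2: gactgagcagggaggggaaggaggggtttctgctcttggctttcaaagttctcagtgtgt
Dlk1 probe 1: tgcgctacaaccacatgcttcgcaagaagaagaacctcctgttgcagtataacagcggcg
Dio3os probe 1: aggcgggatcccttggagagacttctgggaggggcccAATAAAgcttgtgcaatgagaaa
Dio3os probe 3: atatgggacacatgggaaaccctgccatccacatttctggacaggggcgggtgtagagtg

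In mm9 these probes were listed at chr12:110809678-110809737 (Meg3), chr12:110836685-110836744 (1110006E14Rik), chr12:110899840-110899899 (Rian), chr12:110987569-110987628 (Mirg), and chr12:110698428-110698487 (Dlk1), all on the plus strand. The Dio3os probes were on the minus strand, and the array design lists only 13 bases for probe 1, chr12:111513594-111513606, and chr12:111514921-111514980 for probe 3.

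RefSeq (GRCm38.p6) gives Meg3 a pair of 300-base promoter windows, each from 250 bases before to 50 bases after an annotated start. Promoters were listed for 6 of the 8 genes. Meg3 window 1 is shown because it belongs to Meg3, the first RNA described below, and because it was the single window of the 7 listed for these genes to hold TGCCGC, the core of the motif bound by the imprint-keeping factor ZFP57. The motif was searched on both strands, is in capitals, and was found in 11.6% of all 300-base promoter windows. Window 2 is shown because it holds the whole of Meg3 probe 2, in capitals, at its bases 113 to 172.

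Meg3 window 1: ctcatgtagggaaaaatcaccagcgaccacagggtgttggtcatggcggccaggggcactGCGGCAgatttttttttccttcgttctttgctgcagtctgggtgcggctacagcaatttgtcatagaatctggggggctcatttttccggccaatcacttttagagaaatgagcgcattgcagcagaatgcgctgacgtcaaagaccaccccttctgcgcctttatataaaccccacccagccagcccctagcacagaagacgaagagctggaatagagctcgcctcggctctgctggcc
Meg3 window 2: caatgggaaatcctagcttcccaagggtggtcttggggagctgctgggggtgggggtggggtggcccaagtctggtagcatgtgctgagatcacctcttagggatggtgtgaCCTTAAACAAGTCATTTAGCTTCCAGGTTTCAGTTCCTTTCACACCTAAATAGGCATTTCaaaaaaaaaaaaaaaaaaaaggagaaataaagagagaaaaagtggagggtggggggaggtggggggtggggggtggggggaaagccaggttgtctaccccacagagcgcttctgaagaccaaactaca

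Window 1 is chr12:109540746-109541045 and window 2 chr12:109545148-109545447 of GRCm38.p6, both on the plus strand. The windows held 13 and 1 CG pairs, against a median of 7 over all promoter windows. Those of Dio3os and Dio3 held 53 and 25, those of Mirg, Dlk1 and Rian 10, 9 and 0.

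The plus strand between the start of Meg3 and the end of Mirg carries 54 microRNA hairpins with 106 mature microRNAs in RefSeq, of 1005 mouse hairpins in the table. Of these hairpins 13 lie opposite Rtl1, 3 within Rian and 10 within Mirg. The 6 below are examples from these places and from between Rian and Mirg, with the seed (bases 2 to 8, in capitals) through which a microRNA recognises its targets. Those of miR-379 and miR-411 share a seed.

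miR-127-3p (opposite Rtl1): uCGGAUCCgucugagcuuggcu
miR-433-3p (opposite Rtl1): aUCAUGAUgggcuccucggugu
miR-370-3p (within Rian): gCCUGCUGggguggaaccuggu
miR-410-3p (within Mirg): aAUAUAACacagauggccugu
miR-379-3p (between Rian and Mirg): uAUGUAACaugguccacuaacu
miR-411-3p (between Rian and Mirg): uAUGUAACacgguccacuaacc

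None of the 127 gene probes in the span of the locus and 1 Mb on either side shared 20 or more bases with a hairpin of the locus on the printed strand. Probes elsewhere on the array were not searched, and no level of a microRNA is given here.

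Values below are log2 processed intensity over the 75th percentile of the same array, so that 0 is the level below which 75% of gene spots lay, and each is a level unless called a difference. Levels of different probes are not comparable with each other. A probe was counted as measured where the scanner software set it well above background. Each array had 59305 gene spots, of which 57.3% to 67.8% were well above background and none saturated. The filter kept probes with that flag on 3 or more of the 9 arrays, which left 36326 probes and 16 of the 18 member probes. The exceptions, Rtl1 and Rian probe 1, were well above background on 2 arrays each. Of the targeted genes, an Isl1 probe gave -1.24, -0.44 and -1.63 in Isl1KO at DD10, DD16 and DD23, against -0.60, 1.45 and -0.05 in WT, while another Isl1 probe was lower in Isl1KO at DD16 and DD23 only. The Bhlhe23 probe gave -3.41, -4.88 and -6.64 in B4KO, -2.95, -4.55 and -6.56 in Isl1KO, and -3.20, -2.82 and -4.55 in WT, with 1 B4KO array well above background. The labels do not say whether these probes lie in the deleted parts.

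Meg3, the maternally expressed noncoding RNA at the head of the cluster, was far brighter in Isl1KO organoids than in WT organoids on every day. Meg3 probe 2 gave 2.99, 4.80 and 5.49 in Isl1KO at DD10, DD16 and DD23. It gave -1.40, -0.88 and -2.90 in B4KO and -4.19, -0.46 and 0.86 in WT. The lowest Isl1KO array was above the highest array of either other line. Isl1KO exceeded WT 144-fold on DD10, 38.3-fold on DD16 and 24.8-fold on DD23, with a mean difference of 5.69 ± 1.32 on the log2 scale (SD over 3 days).

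Meg3 probe 5, which like probe 2 was well above background on all 9 arrays, was likewise highest in Isl1KO on each day. It gave 2.06, 3.91 and 4.94 in Isl1KO, -2.02, -1.10 and -2.87 in B4KO, and -3.28, -1.22 and 0.49 in WT. Its Isl1KO minus WT difference was 4.98 ± 0.46 (SD over 3 days). The other 3 Meg3 probes were well above background on all Isl1KO arrays but, in WT, at DD23 only. Probe 1 gave -1.11, 0.65 and 1.53 in Isl1KO, -6.79, -5.92 and -6.69 in B4KO, and -6.51, -5.21 and -3.33 in WT. Probe 3 gave -0.54, 1.25 and 2.97 in Isl1KO, -4.73, -4.30 and -4.84 in B4KO, and -5.02, -4.31 and -1.87 in WT. Probe 4 gave -3.52, -2.18 and -0.15 in Isl1KO, -7.14, -6.88 and -4.41 in B4KO, and -6.78, -6.48 and -4.58 in WT. In each of them the Isl1KO values went up with every day, while the B4KO arrays were below background except for probe 4 at DD23. Their mean differences were 5.37 (probe 1), 4.96 (probe 3) and 3.99 (probe 4), with WT values below background counted as measured. At DD10, against the lowest well-above-background signal of the WT array, they were at least 10.6-fold, 15.8-fold and 2.0-fold higher in Isl1KO. All 5 Meg3 probes gave Isl1KO values above all WT values.

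**Figure D1:**
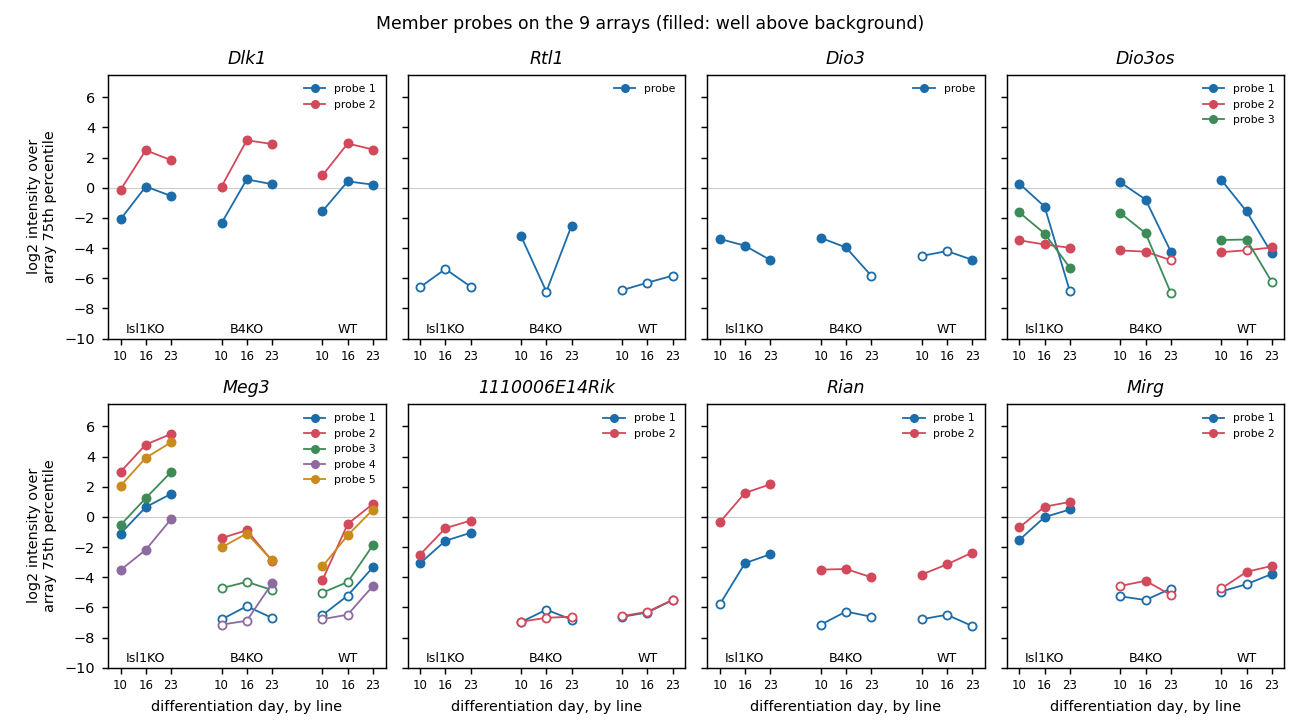
Level of each member probe (y axis, log2 intensity over the array's 75th percentile) on the 9 arrays, by line and differentiation day (x axis). Filled points were well above background and open points were not. The Meg3, 1110006E14Rik, Rian and Mirg probes sit higher in Isl1KO than in B4KO and WT, while the lines overlap for Dlk1 and Dio3.

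Rian, the host of small nucleolar RNAs and miR-370, was likewise higher in Isl1KO. Its probe 2 was well above background on all 9 arrays, with -0.36, 1.59 and 2.16 in Isl1KO, -3.49, -3.45 and -4.00 in B4KO, and -3.82, -3.15 and -2.36 in WT. No Isl1KO value overlapped another line, and the Isl1KO minus WT difference was 4.24 ± 0.68 (SD over 3 days). Set against B4KO, Rian probe 2 was 8.78-fold higher in Isl1KO at DD10, and 32.9-fold and 71.2-fold at DD16 and DD23. Rian probe 1 was listed over 7100 bases of the genome and was well above background in Isl1KO at DD16 and DD23 (-3.07 and -2.48) and on no other array. Against the lowest measurable signal of WT it was at least 2.22-fold higher at DD16 and at least 5.66-fold higher at DD23.

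Mirg, the RNA that holds the distal microRNA hairpins, had -0.70, 0.68 and 0.99 at probe 2 in Isl1KO, -4.57, -4.23 and -5.16 in B4KO, and -4.74, -3.64 and -3.24 in WT. The Isl1KO minus WT difference was nearly equal on the 3 days, 4.20 ± 0.14 (SD), with the WT value at DD10, below background, counted as measured. Probe 1 of Mirg gave -1.53, -0.01 and 0.49 in Isl1KO, -5.26, -5.51 and -4.75 in B4KO, and -4.94, -4.46 and -3.78 in WT, and differed by 4.05 ± 0.55 between Isl1KO and WT, where it was well above background at DD23 only. In B4KO, Mirg probe 1 was below background on all 3 arrays and probe 2 on 2 of them.

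1110006E14Rik, whose probes lie between those of Rtl1 and Rian, was well above background on the 3 Isl1KO arrays alone. Probe 2 gave -2.49, -0.75 and -0.24 in Isl1KO, against -6.94, -6.68 and -6.61 in B4KO and -6.57, -6.28 and -5.50 in WT. Probe 1 gave -3.07, -1.58 and -1.05 in Isl1KO, -6.96, -6.15 and -6.80 in B4KO, and -6.62, -6.33 and -5.52 in WT. With every B4KO and WT value below background, only a bound can be given. Against WT the mean over days was at least 10.6-fold higher in Isl1KO for probe 2 and at least 6.36-fold higher for probe 1.

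Among the paternally expressed members, Dlk1 did not share this excess. Dlk1 probe 2 gave -0.15, 2.48 and 1.83 in Isl1KO, 0.07, 3.14 and 2.90 in B4KO, and 0.82, 2.93 and 2.53 in WT. The Isl1KO value was below that of WT on each day, by 0.97, 0.45 and 0.70 on the log2 scale, although the lines' ranges over days overlapped. Dlk1 probe 1 gave -2.09, 0.08 and -0.55 in Isl1KO, -2.35, 0.55 and 0.24 in B4KO, and -1.55, 0.42 and 0.20 in WT. It had a mean Isl1KO minus WT difference of -0.54 ± 0.20 and probe 2 of -0.71 ± 0.26 (SD over 3 days). B4KO differed from WT by -0.21 and -0.06 in the same probes.

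Rtl1, whose gene lies opposite a group of the microRNAs above, was not well above background on any Isl1KO or WT array. It was measured on 2 B4KO arrays, at -3.22 at DD10 and -2.51 at DD23, while the B4KO value at DD16 was -6.88 and below background. No line difference is drawn from it. Dio3 gave -3.39, -3.84 and -4.79 in Isl1KO, -3.32, -3.96 and -5.83 in B4KO, and -4.52, -4.20 and -4.77 in WT, of which the WT values at DD10 and DD16 and the B4KO value at DD23 were below background. Its mean Isl1KO minus WT difference was 0.49 ± 0.58 with values below background counted as measured, and the ranges of these lines overlapped. By day, Dio3 was at least 2.18-fold higher in Isl1KO than in WT at DD10 and at least 1.28-fold at DD16. At DD23, with both lines measured, the difference was -0.02 on the log2 scale.

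Across the locus, 10 of the 16 members that passed the filter were at least 2-fold higher in Isl1KO than in WT on all 3 days, beside 0.116% of all probes (42 of 36326), and 0 were at least 2-fold lower, beside 0.0743%. The same 10 gave Isl1KO values above every WT value, beside 1.61% of all probes, and 0 members lay below every WT value, beside 1.52%. The 10 were all Meg3, 1110006E14Rik and Mirg probes and Rian probe 2. None of the 3 Dlk1 and Dio3 probes did so, and neither did any of Dio3os, whose mean differences were -0.81, 0.38 and 1.06. Both 1110006E14Rik probes passed the filter through the Isl1KO arrays alone, so that the filter fixed part of these counts and of those against B4KO. The members were chosen with this contrast known, and nothing is read from the comparison of these shares. Since the samples are bulk organoids, fewer cells of a type and less RNA per cell cannot be told apart.

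Set against B4KO, the same Isl1KO arrays gave the same 10 of 16 members at least 2-fold higher on all 3 days, beside 3.19% of all probes, and 0 lower, beside 0.033%. Isl1KO lay above every B4KO value for 11 members, these 10 and Dio3os probe 2, beside 14.4% of all probes, and below every B4KO value for 0, beside 3.87%. B4KO set against WT, whose arrays are shared with the first comparison, gave 0 of 16 members at least 2-fold higher on all days, beside 0.00826% of all probes, and 0 at least 2-fold lower, beside 2.94%. B4KO lay above every WT value for 0 members, beside 4.36% of all probes, and below every WT value for 1, beside 14.0%. That member, 1110006E14Rik probe 2, was below background in both lines. The B4KO minus WT difference of Meg3 probe 2 was 2.78 at DD10 and -3.77 at DD23, so that the order of these lines turned round between the days. That of Mirg probe 2 ranged from -1.92 to 0.17.

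**Figure D2:**
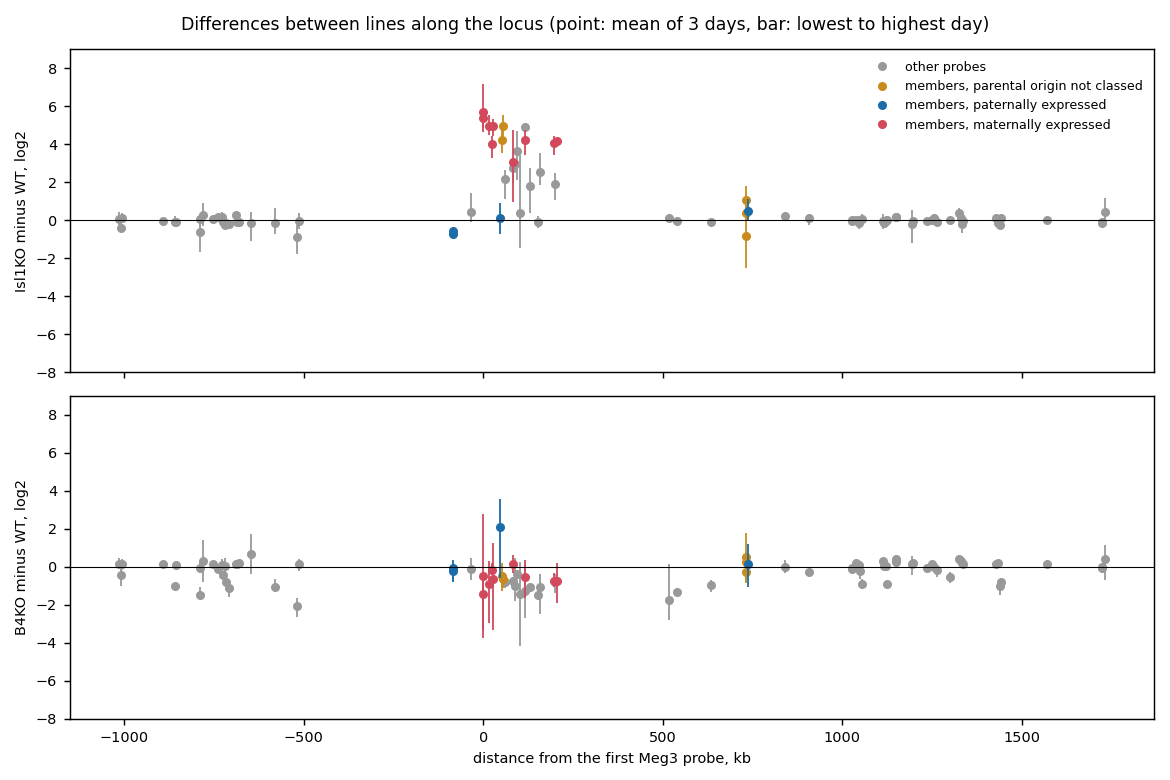
Difference between lines on the log2 scale (y axis) for each member and for each other probe that passed the filter, by distance in kb from the first Meg3 probe (x axis), Isl1KO minus WT above and B4KO minus WT below. Points are means of 3 days and bars run from the lowest to the highest day. Most probes between Meg3 and Mirg stand above 0 in the upper panel and the flanks lie near 0.

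Probes that belong to no member were read over the same stretch and its flanks. Between the first Meg3 and the last Mirg probe, the array held 14 such probes on the plus strand. Of the 9 that passed the filter, 6 were at least 2-fold higher in Isl1KO than in WT on all 3 days. Of the 6, 2 passed through the Isl1KO arrays alone, so that the filter fixed part of this count and nothing is read from it. On the minus strand 1 of 4 passed, with -4.05, -1.97 and -1.67 in Isl1KO. It too passed through the Isl1KO arrays alone, with no WT or B4KO array well above background, so nothing is read from it. Outside, 56 probes passed the filter within 1 Mb on either side and 0 of them differed by 2-fold on all days. Their Isl1KO minus WT differences ran from -0.85 to 0.43, with a median of -0.02, near the median of 0.01 over all probes.

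The nearest genes on the Dlk1 side, clone, Rik and predicted names left out, were Begain, Wdr25 and Wars, with mean Isl1KO minus WT differences of -0.03, -0.85 and -0.11. On the Dio3 side, by the same choice, Ppp2r5c, Dync1h1 and Hsp90aa1 differed by -0.04, -0.02 and 0.20. The Wdr25 probe gave the lowest value of both flanks, and its B4KO minus WT difference was -2.08, with 1 B4KO array well above background. The other Wdr25 probes past the filter differed by -0.12 and -0.13 between Isl1KO and WT. Between B4KO and WT they differed by 0.65 and -1.08, the latter with no B4KO array well above background.

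The 11 probes of Meg3, 1110006E14Rik, Rian and Mirg moved together over the 9 arrays, with Pearson's r between pairs of 0.83 to 0.996 and a median of 0.97 over 55 pairs. These points share arrays and are dominated by the Isl1KO arrays, and r is given as a description only. The same probes had r of -0.10 to 0.14 with the Dlk1 probes and of -0.22 to 0.26 with Dio3. The Dlk1 probes had r of 0.99 with each other. Dio3 had r of 0.95 with Dio3os probe 3, 0.71 with probe 1 and 0.69 with probe 2.

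Among 5149 genes outside the locus, compared over the 9 arrays, the pattern most like Meg3 probe 2 was that of Olfr283 (r of 0.95), an olfactory receptor gene, then H60a (0.94), a ligand of a natural killer cell receptor, Nap1l5 (0.91), a paternally expressed gene on chromosome 6, ENSMUST00000186324 (0.88) and Olfr629 (0.85). Olfr283 and H60a were well above background on the 3 Isl1KO arrays only, so that their r rests on values below background in B4KO and WT. Nap1l5 was below background on all B4KO arrays and 2 of the 3 WT arrays, and ENSMUST00000186324 likewise and on 1 Isl1KO array. Nap1l5 gave -0.77, -0.31 and 0.29 in Isl1KO, -7.06, -6.80 and -6.90 in B4KO, and -6.68, -2.95 and -4.96 in WT. The genes most like Dlk1 probe 2 were Gm3448, Cfap57, Gm16342, 1700016K19Rik and Cebpb, all with r of 0.97 to 0.98. Cebpb, a leucine-zipper transcription factor, gave -1.68, 0.13 and 0.07 in Isl1KO, -1.50, 0.82 and 0.35 in B4KO, and -1.08, 0.45 and -0.23 in WT. The genes most like Dio3 were LOC102641139 (0.95), BX522927 (0.94), 3110027N22Rik (0.91), Fign (0.90) and Pou2f2 (0.88).

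The change between days was tested over all 9 arrays with line as an additive term (limma), each of the 3 lines serving as a replicate of the day, and adjusted over all 36326 probes at 0.05. The spread is the departure of the lines from parallel change. Dlk1 rose between DD10 and DD16, in all 3 lines. At DD16 against DD10, probe 1 was higher at DD16 by 2.35 ± 0.22 (SE) on the log2 scale, with a limma adjusted p of 0.00121. Probe 2 was higher by 2.60 ± 0.22 (SE), with an adjusted p of 0.000985. These were 2 of the 16 members to pass, beside 38.9% of all probes in either direction and 20.6% that rose. No member fell, beside 18.3% of all probes. Between DD16 and DD23 the Dlk1 probes changed by -0.39 and -0.43, with limma adjusted p of 0.209 and 0.174.

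Dio3os, the noncoding RNA beside Dio3, fell between DD16 and DD23 in 2 of its 3 probes. Probe 1 gave 0.27, -1.25 and -6.86 in Isl1KO at DD10, DD16 and DD23, 0.36, -0.78 and -4.23 in B4KO, and 0.52, -1.57 and -4.35 in WT. Relative to DD16 it fell by 3.95 ± 0.57 (SE) at DD23, with a limma adjusted p of 0.00409. This estimate counts the Isl1KO value at DD23, which was below background, as measured. The steps were -5.6 in Isl1KO, -3.45 in B4KO and -2.79 in WT. Probe 3 gave -1.64, -3.04 and -5.29 in Isl1KO, -1.68, -3.01 and -6.96 in B4KO, and -3.46, -3.43 and -6.24 in WT. It fell by 3.01 ± 0.47 (SE), with an adjusted p of 0.00545 (0.0507 without the Isl1KO arrays), and at DD23 it was well above background in Isl1KO only. Probe 2 changed by -0.20 (adjusted p of 0.452) and disagreed with both, its levels staying between -4.80 and -3.48 on all arrays. Dio3 itself changed by -1.13 ± 0.38 (SE) between DD16 and DD23, with a limma adjusted p of 0.0615. At DD23 against DD10 it was lower by 1.39 on the log2 scale, with an adjusted p of 0.0214. The Dio3 call was lost without the Isl1KO array at DD10, without that at DD23, without the B4KO array at DD10, without all Isl1KO arrays and without all B4KO arrays, where the change was -0.83.

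Of the maternally expressed RNAs, Meg3 probe 4 rose between DD16 and DD23, by 2.13 ± 0.25 (SE) with a limma adjusted p of 0.00239. It was higher at DD23 in all 3 lines, and the WT and B4KO values at DD16 were below background. With the falls of Dio3os, 3 of 16 members passed between DD16 and DD23, beside 38.6% of all probes. Of these, 1 was higher, beside 18.3% of all probes, and 2 were lower, beside 20.3%. The brighter Meg3 probes 2 and 5 did not pass at this step (adjusted p of 0.999 and 0.791), their steps in the lines running in opposite directions. Probe 2 changed by 0.70 in Isl1KO, -2.02 in B4KO and 1.33 in WT.

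**Figure D3:**
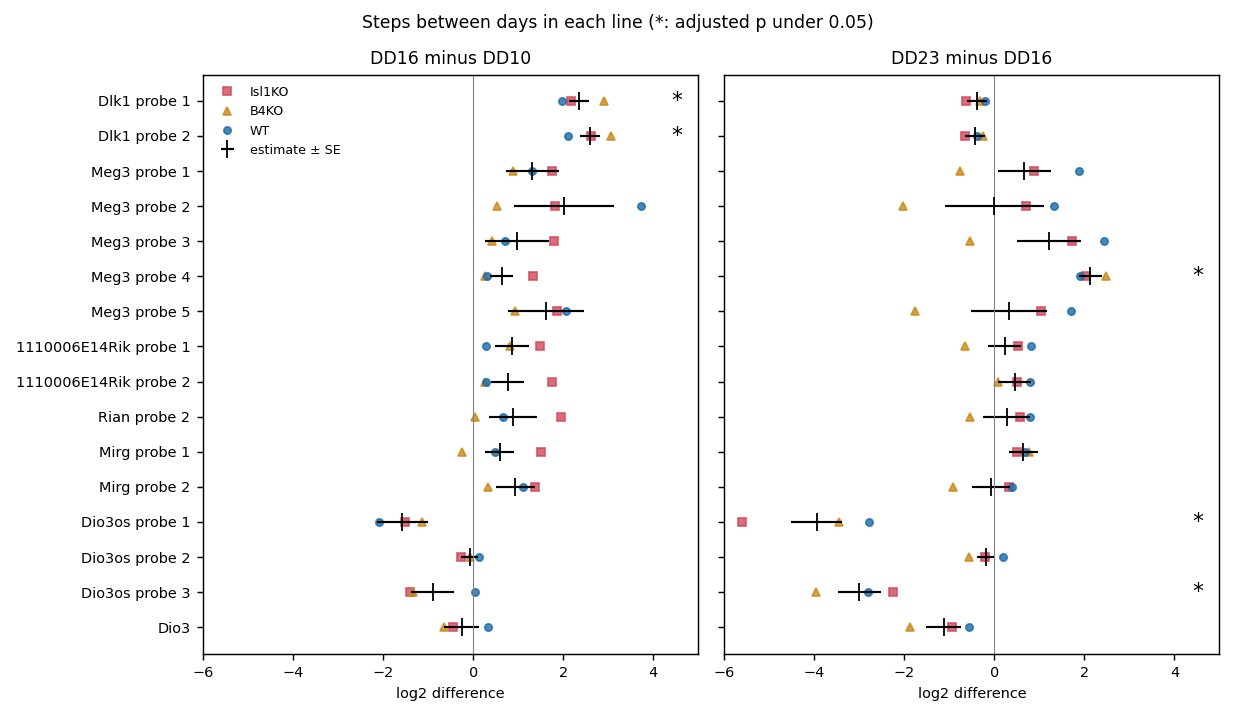
Log2 difference between consecutive days (x axis) for the 16 members that passed the filter (y axis), DD16 minus DD10 on the left and DD23 minus DD16 on the right. Coloured points are the steps of single lines, black marks the limma estimate with its SE, and an asterisk an adjusted p under 0.05. The Dlk1 probes rise at the first step, Dio3os probes 1 and 3 fall at the second, and B4KO parts from the other lines in Meg3 probes 2 and 5.

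Over the whole course, DD23 against DD10, 8 members were higher and 3 lower of 16, beside 59.6% of all probes in either direction, 30.7% higher and 28.9% lower. The 8 were both Dlk1 probes, Meg3 probes 1, 3 and 4, both 1110006E14Rik probes and Mirg probe 1. The 1110006E14Rik probes were well above background in Isl1KO only, where they were 2.02 and 2.25 higher at DD23. Meg3 probes 1 and 3 and Mirg probe 1 were below background on all B4KO arrays and in WT at DD10. Their B4KO steps were 0.11, -0.12 and 0.51. Meg3 probe 4 was below background in B4KO and WT at DD10. The rises of these Meg3 and Mirg probes were thus measured on both days in Isl1KO only. The 3 lower members were Dio3os probes 1 and 3 and Dio3. The count fell to 7 without the Isl1KO array at DD10, to 5 without that at DD23, and to 7 without the WT array at DD23, against 11 with all arrays. Not every probe of these genes passed. Meg3 probe 5, which did not pass (adjusted p of 0.0932), was 2.89 higher at DD23 than at DD10 in Isl1KO, 0.85 lower in B4KO and 3.77 higher in WT.

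The counts between consecutive days were larger without the B4KO array at DD10 or DD23, and the same, 2 and 3, without that at DD16. Between DD10 and DD16, 7 members passed without the B4KO array at DD23, beside 35.8% of all probes, and 4 without that at DD10, beside 28.8%, against 2 with all arrays. Between DD16 and DD23, 6 passed without the B4KO array at DD23, beside 30.6% of all probes, and 5 without that at DD10, beside 36.8%, against 3. In WT and Isl1KO alone, which share a slide, the counts were 5 at the first step, beside 18.97% of all probes, and 6 at the second, beside 24.3%. Both Dlk1 rises passed under every alternative that tested both probes, and that of probe 2 also where 1 probe per gene was kept.

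Outside the locus, imprinted genes were read from lists of known parental expression. Among maternally expressed genes, 11 of 13 passed the filter and 2 were at least 2-fold higher in Isl1KO than in WT on all days. Cdkn1c, a cyclin-dependent kinase inhibitor, gave 5.71, 5.44 and 4.38 in Isl1KO, -1.69, -0.85 and -1.90 in B4KO, and -1.42, -1.30 and -2.31 in WT, a mean difference of 6.85. H19, the noncoding RNA beside Igf2, had a mean difference of 1.35. Among paternally expressed genes, 23 of 23 passed and 1, Nap1l5, was at least 2-fold higher on all days, its mean difference being 4.60 with values below background, all in B4KO and those of WT at DD10 and DD23, counted as measured. The list medians were -0.05 and -0.02, beside 0.01 over all probes. Next in size came Asb4 (-0.85), and on the paternal list Inpp5f (-1.04) and Plagl1 (0.77). In B4KO minus WT the 3 widest differences were Kcnq1 (-2.0, with 1 B4KO array well above background), Grb10 (0.60) and H19 (0.60) on the maternal list, and Nap1l5 (-2.06, with no B4KO array and 1 WT array well above background), Airn (-0.99) and Rasgrf1 (-0.81) on the paternal one.

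Genes of both lists changed with day, as did 20.6% of all probes that rose and 18.3% that fell between DD10 and DD16, and 18.3% and 20.3% between DD16 and DD23. Between DD10 and DD16, 1 maternally expressed gene rose, H19 by 0.91 (limma adjusted p of 0.00539), and 4 fell. The widest falls were those of Asb4, a ubiquitin-ligase subunit, by 3.40 (adjusted p of 0.000577) and Ascl2, a helix-loop-helix factor, by 0.69 (adjusted p of 0.0155). Of the paternally expressed genes 4 rose, with Rasgrf1 at 1.21 and Peg13 at 1.03 (adjusted p of 0.0121 and 0.00118), and 6 fell, with Mest at -2.10 and Slc38a4, an amino acid transporter, at -1.80 (adjusted p of 0.000513 and 0.00105). Between DD16 and DD23, 1 maternally expressed gene rose, Zim1 by 0.98 (adjusted p of 0.00445, and at least 1.6-fold, being below background on all DD16 arrays), and 5 fell, with Asb4 at -1.45, where 1 DD23 array was well above background, and H19 at -1.42 (adjusted p of 0.00648 and 0.00162). Of the paternally expressed genes 4 rose, with Peg13 at 0.88 and Zrsr1 at 0.53 (adjusted p of 0.00194 and 0.0202), and 8 fell, with Slc38a4 at -2.69 and Plagl1, a zinc finger factor, at -1.74 (adjusted p of 0.000666 and 0.00325).

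Of 19 regulators of imprints and chromatin, 18 passed the filter, and 0 differed by 2-fold between Isl1KO and WT on all days. Their median Isl1KO minus WT difference was -0.01, and Zfp57, which protects imprints by binding the motif shown above, differed by -0.34. Dnmt3b, a de novo DNA methyltransferase, differed by 0.39, and Uhrf1, the partner of maintenance methylation, by -0.13. In B4KO minus WT the widest were Dnmt3l (-1.17, below background on all B4KO arrays, and at least 1.46-fold lower), Aff3 (-0.97) and Tet3 (-0.61). Beside the same shares of all probes, between DD10 and DD16, 2 rose, Dnmt3a by 0.68 and Aff3 by 0.66 (limma adjusted p of 0.0175 and 0.00741), and 6 fell, with Dnmt3b at -1.10 and Ezh2 at -0.52 (adjusted p of 0.00804 and 0.0101). Between DD16 and DD23, 5 rose, with Jarid2 at 0.75 and Dnmt3a at 0.73 (adjusted p of 0.00959 and 0.0132), and 8 fell, with Uhrf1 at -2.0 and Dnmt3b at -1.55 (adjusted p of 0.0022 and 0.0028).

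Among genes of thyroid hormone handling, the pathway of Dio3, 8 of 10 passed the filter, and Dio1 and Dio2, the activating deiodinases, did not. Between DD10 and DD16, 4 rose, beside 20.6% of all probes, and 2 fell, beside 18.3%. Crym, a protein that binds thyroid hormone in the cell, was below background on all DD10 arrays and rose at least 39.5-fold (limma adjusted p of 0.000164), and Thrb, the receptor that acts in cones, by 2.41 (adjusted p of 0.00116). Of the falls, the wider was that of the transporter gene Slc16a10, at least 2.95-fold (adjusted p of 0.00105), to values below background on all DD16 arrays. Between DD16 and DD23, 2 rose, Crym by 4.07 and Thrsp by 1.96 (adjusted p of 0.000695 and 0.00371), beside 18.3% of all probes, and 0 fell, beside 20.3%. None of the 8 differed by 2-fold on all days between Isl1KO and WT, where the widest were Slc16a10 (-0.71), Crym (-0.60) and Thrsp (-0.33), or between B4KO and WT, where they were Slc16a10 (-0.89), Ttr (0.55) and Thrsp (-0.53). Slc16a10 was well above background at DD10 only and Crym at DD16 and DD23 only, and their line differences count the other days as measured.

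All 8 photoreceptor markers and all 8 progenitor and eye-field markers passed the filter, and 6 of the 8 photoreceptor genes rose between DD10 and DD16, beside 20.6% of all probes, and 8 of 8 between DD16 and DD23, beside 18.3%. Nrl, Rcvrn and Nr2e3 were below background on all DD10 arrays, and Rcvrn on all DD16 arrays too. Of the 8 progenitor and eye-field genes, 4 rose and 1 fell between DD10 and DD16, beside 20.6% and 18.3% of all probes. Between DD16 and DD23, 0 of them rose and 5 fell, beside 18.3% and 20.3%. Meg3 and Dlk1 are also known from mesenchyme, muscle and pituitary. In each marker list, the linear intensities were summed and the sum taken as log2, so that the brightest probes weigh most. These sums for the mesenchyme markers (6 of 8 past the filter, Twist1 and Lum not) ranged from 0.87 to 1.83 in Isl1KO, 1.45 to 1.98 in B4KO and 1.40 to 2.76 in WT. The muscle markers (3 of 6, Myod1, Myog and Ckm not) ranged from -3.18 to -1.82 in Isl1KO, -3.92 to -2.08 in B4KO and -2.70 to -2.16 in WT. The pituitary markers (3 of 7, Pou1f1, Cga, Gh and Prl not) ranged from -0.69 to 0.01 in Isl1KO, -0.39 to 0.68 in B4KO and -0.77 to 0.56 in WT. The pluripotent markers (4 of 5, Zfp42 not) ranged from 0.48 to 0.81 in Isl1KO, 0.33 to 0.70 in B4KO and 0.64 to 0.75 in WT. The Isl1KO and WT ranges of these 4 lists overlapped. The forebrain markers (5 of 6, Nkx2-1 not) ranged from 1.84 to 4.15 in Isl1KO, 1.73 to 3.99 in B4KO and 1.03 to 5.05 in WT. Pigment epithelium markers (5 of 6, Rpe65 not) ranged from 2.99 to 5.74 in Isl1KO, 3.69 to 5.80 in B4KO and 3.68 to 5.85 in WT. The part of any of these cell types in the Meg3 result was not tested.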

How the data were processed

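RNA of 9 pooled organoid samples was measured on 1-colour Agilent arrays. Agilent Feature Extraction 12.0.3.1 is the tool in the submitters' processing notes. The deposited intensity of each spot had its background removed and spatial trend corrected within the array, and probe positions were on build mm9, per the file headers. The authors also deposited a linear table of the intensity ratio to a per-array constant, used here on a log2 scale as an alternative. Flags for spots well above background were used as the file headers define them.

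Spots of a probe were averaged, and 102 probes with outlier flags were left out. Each intensity was divided by its array's 75th percentile and taken as log2. Of 56503 probes, 32926 took a symbol from RefSeq (GRCm38.p6) and 23577 kept the file's name. Days were compared with limma 3.58.1 in R 4.3.3, with line and day additive and Benjamini-Hochberg adjustment. On simulated data of DD16 against DD10 over 36326 probes, the test found 57 of 100 probes changed by 1 and 92 of 100 changed by 2 on the log2 scale, with 9 false calls. All other probes were simulated with no day effect, and noise was independent between probes, with the widest spreads capped. In the data 38.9% of probes were called at this step, so these figures need not hold for the tests reported. "At least" folds set dim values to the lowest well-above-background signal of the array, or their own where higher. Nothing in the labels says that lines were cultured in parallel, and p-values measure only the spread between these samples. The number of arrays limits the precision. Named were all members, the 2 largest passing rises and falls of each list by day, its 3 largest line differences, the 5 genes most like Meg3, Dlk1 and Dio3, and the 3 nearest flank genes with a full symbol. Alternatives were quantile normalization, normexp (offset 50), no scaling, other filters, 1 probe per gene, arrays left out, the deposited table and limma with trend. The members, lists and tests were chosen with earlier results of these data known. A few items are not reported here.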

Additional observations from a re-analysis of the deposited data

Results flagged for a closer look

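Meg3 probe 2 and Meg3 probe 5, the brightest Meg3 probes, changed in opposite directions between DD16 and DD23 in B4KO and in the other lines. Probe 2 changed by -2.02 on the log2 scale in B4KO, against 0.70 in Isl1KO and 1.33 in WT. Probe 5 changed by -1.77 in B4KO, against 1.03 in Isl1KO and 1.71 in WT. Each step is the difference of 2 arrays, all well above background for these probes. The difference between the lines was not tested, since no line and day has a second array.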

How the results depend on the processing

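No result of the members changed its direction under the alternatives run. At DD16 against DD10, 2 members passed, with 1 for the brightest probe per gene (7 members tested) and 5 on the slide of WT and Isl1KO only, and from 2 to 7 with arrays left out in turn. At DD23 against DD16, 3 passed, with 0 among the 5 members well above background on all arrays, 1 for the brightest probe per gene and 6 on the WT and Isl1KO slide, and from 3 to 6 with arrays left out. At DD23 against DD10, 11 passed, with 7 without a filter, 2 of 5 for probes well above background on all arrays, 4 of 7 for the brightest probe per gene and 5 without the Isl1KO arrays, and from 5 to 15 with arrays left out. Scaling mattered here too: of these 11 calls, 3 were lost under quantile normalization and 3 with no scaling between arrays. Fewer members entered under the stricter filter and the gene-wise choice, and the cause of the other changes was not tested. The share of all probes called moved too, to 17.7% (DD16 against DD10), 18.6% (DD23 against DD16) and 35.6% (DD23 against DD10) without a filter, to 13.1%, 12.8% and 41.3% for the same steps without the Isl1KO arrays, and to 18.97% and 24.3% for the consecutive steps on the WT and Isl1KO slide. Leaving out Isl1KO DD10, Isl1KO DD16 or B4KO DD16 gave 24.1%, 23.7% and 25.8% at the first step, and leaving out Isl1KO DD16, Isl1KO DD23 or WT DD16 gave 24.8%, 24.5% and 24.6% at the second. Isl1KO minus WT and Isl1KO minus B4KO gave 10 members and B4KO minus WT 0 under every scaling and with any day left out. Among single probes, 42 day calls were lost, a call being counted again under each alternative that lost it. Under normexp 14 line differences moved, all to smaller values, such as Meg3 probe 1 to 3.55 and 1110006E14Rik probe 1 to 2.14 (Isl1KO minus WT). Dim probes limit what can be said of Rtl1, Rian probe 1 and 1110006E14Rik. No paired analysis was possible because the labels carry no replicate numbers, and line is already a term of the day tests.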

Other observations

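The 42 probes at least 2-fold higher in Isl1KO than in WT on all 3 days included 17 between Meg3 and Mirg, 10 of them members, and 25 elsewhere. Some of the 17 passed the filter through the Isl1KO arrays alone, and nothing is read from this count. The genes named here were chosen after their values were seen. Vax2os, the noncoding RNA beside the eye-patterning gene Vax2, differed by 5.40 and 4.47 in its 2 probes, Crygf, a lens crystallin gene, by 1.93, and Sema3a, a secreted axon-guidance factor, by 1.57, all as mean log2 differences over 3 days, with values below background counted as measured.

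Dio3os probe 1 was below background in Isl1KO at DD23, at -6.86, and well above it in B4KO and WT on the same day, at -4.23 and -4.35.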
